A study of Homo sapiens with 6 samples.

Results

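The glycosyltransferases of mucin and N-glycan synthesis were taken as 78 gene symbols of the 34234 in the deposited count table. They were chosen by name: the GALNT, GCNT1 to GCNT4, B3GNT, B3GALT, B4GALT, ST3GAL, ST6GAL, ST6GALNAC, ST8SIA, FUT and MGAT genes, with A4GALT and C1GALT1. The rule uses names and no measured value. Of the 78, 76 encode proteins in GENCODE 29, and MGAT4EP and ST6GALNAC4P1 are pseudogenes. After a filter on low counts 54 were tested and 24 were not, and the 24 are described near the end.

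Poly-A RNA was sequenced from HCCLM3, a strongly metastatic line derived from human hepatocellular carcinoma. The shATXN7L3 group (3 libraries) received a lentivirus carrying a short hairpin RNA against ATXN7L3, and the shcontrol group (3 libraries) a lentivirus carrying a control hairpin. Both groups grew in DMEM with serum, and the virus medium was replaced after 16 hours. ATXN7L3 is an adaptor of the SAGA module that removes ubiquitin from histone H2B. The sources used here do not say how many hairpins were used, how long after transduction RNA was taken, or that replicates were separate cultures. The p-values therefore reflect library-to-library spread alone, and that spread may be technical.

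Library totals ran from 22757031 to 23915783 counts in shATXN7L3 and from 22376867 to 23033763 in shcontrol, with 21.7% to 23.0% of counts from mitochondrially encoded transcripts. Levels are given as counts per 1e6 counts (CPM), scaled by TMM. After a level, ± is the SD over the 3 libraries of a group, and after a log2 fold change, shATXN7L3 over shcontrol, it is the standard error (SE). ATXN7L3 stood at 20.6, 20.5 and 19.5 CPM in shATXN7L3 against 36.4, 37.5 and 37.5 CPM in shcontrol. The groups did not overlap and the direction fitted the labels (log2 fold change -0.88 ± 0.056 SE; exact two-sided permutation p = 0.1, the smallest that 3 against 3 libraries allow). Of the hepatocyte markers ALB, AFP, TTR, APOA1, APOB, TF, SERPINA1 and FGB, 7 were tested and all 7 were lower (edgeR adjusted p under 0.05). By the same test 12.0% of all tested genes and 14.4% of tested protein-coding genes were lower. The summed level of the hepatocyte markers was 145 to 150.3 CPM in shATXN7L3 and 402 to 449 CPM in shcontrol. ALB averaged 24.1 ± 1.15 CPM in shATXN7L3 and 65.2 ± 1.69 CPM in shcontrol, while TTR and APOA1 were under 1 CPM in every library. The part of this shift in the results below was not tested. In RNA from bulk cells, fewer cells of a kind and less RNA per cell cannot be told apart.

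Glycosyltransferases sit mainly in the Golgi and add 1 sugar at a time from a nucleotide sugar to a growing glycan. Mucin-type O-glycans start when a GALNT enzyme puts N-acetylgalactosamine on serine or threonine. C1GALT1 and the GCNT enzymes then build the core structures. N-glycans arrive as a preassembled block on asparagine, are trimmed, and are branched by the MGAT enzymes. B3GNT, B3GALT and B4GALT enzymes extend both kinds of chain, and also glycolipids. Sialyltransferases and fucosyltransferases cap them. In liver most secreted plasma proteins carry N-glycans, and altered branching, core fucose and sialylated O-glycans are well known in carcinoma cells.

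Of the 54 tested glycosyltransferase genes, 12 were higher and 15 were lower in shATXN7L3 than in shcontrol, and 27 did not pass (edgeR quasi-likelihood test, Benjamini-Hochberg adjusted p under 0.05 over all 17935 tested genes). That is 50% called, against 24.2% of all tested genes (12.2% higher and 12.0% lower) and 28.8% of tested protein-coding genes. Among tested protein-coding genes at 10 CPM or more, 32.2% were called. With size asked as well, 9 of the 54 were called and changed at least 1.5-fold, against 5.29% of all tested genes and 5.72% of tested protein-coding genes. The 3 shATXN7L3 libraries lay wholly above or below the 3 shcontrol libraries for 32 genes, or 59.3%, against 38.3% of all tested genes and 43.4% of tested protein-coding genes. The direction was mixed. The median log2 fold change was -0.04, and 0.01 over all tested genes. The range was wide, reaching -2.02 for GALNT6 and 1.20 for GCNT4. The median size of change, regardless of sign, was 0.19 on the log2 scale and 0.14 over all tested genes. All 27 called genes had groups that did not overlap. The summed level of the 78 genes was 2342 to 2360.5 CPM in shATXN7L3 and 2424 to 2544 CPM in shcontrol.

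**Figure D1:**
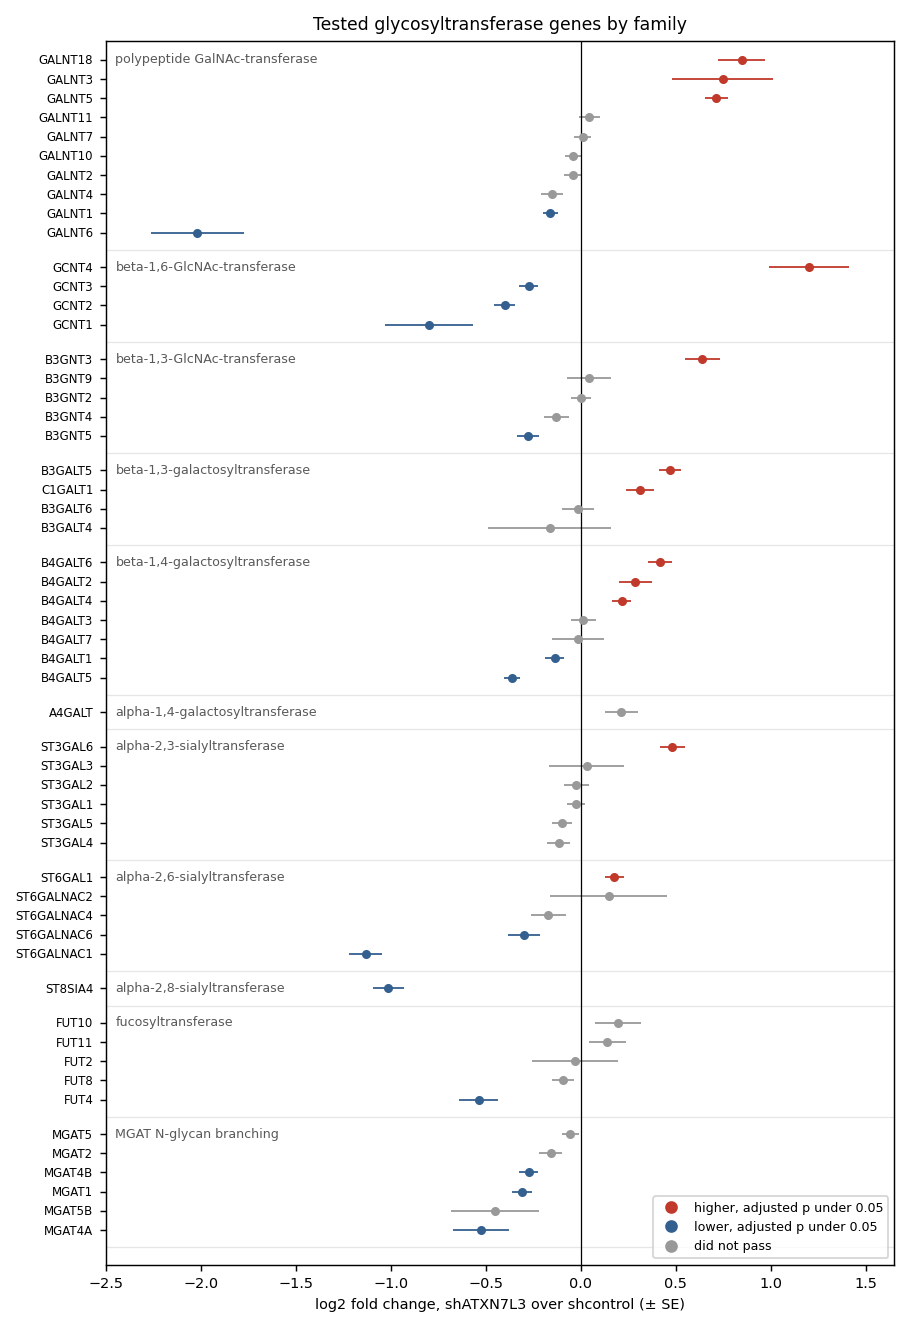
Log2 fold change of shATXN7L3 over shcontrol (x axis) with its SE for each of the 54 tested glycosyltransferase genes, grouped by enzyme family. Red points are the 12 higher genes, blue points the 15 lower genes and grey points the 27 that did not pass. Most families hold points on both sides of 0, and GALNT6, ST6GALNAC1 and ST8SIA4 lie farthest to the left.

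Among the polypeptide GalNAc-transferases, which start O-glycans, 3 of 10 tested genes were higher, 2 were lower and 5 did not pass. The background for this and each family count below is all tested genes, with 12.2% higher and 12.0% lower. GALNT5 was the most expressed of the GALNT genes that rose. It stood at 56.5, 54.6 and 52.1 CPM in shATXN7L3 and at 32.7, 30.7 and 36.1 CPM in shcontrol. Every shATXN7L3 library was above every shcontrol library. The log2 fold change was 0.71 ± 0.060 (SE; edgeR adjusted p = 3.35e-08). GALNT5 lies at chromosome 2, bases 157257598 to 157314211, plus strand (GRCh38, as are all positions here).

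GALNT18, another polypeptide GalNAc-transferase, had 6.62, 5.68 and 6.49 CPM in shATXN7L3 and 3.78, 3.59 and 3.08 CPM in shcontrol. The separation was complete at a lower level, 1.73 CPM per kilobase of exon in shATXN7L3 against 7.98 for GALNT5. The log2 fold change was 0.85 ± 0.12 (edgeR adjusted p = 3.94e-05). GALNT3, known for protecting the hormone FGF23 from cleavage, stood at 0.903, 1.41 and 1.30 CPM in shATXN7L3 and at 0.533, 0.783 and 0.835 CPM in shcontrol. The groups did not overlap, but only just. Its log2 fold change of 0.75 ± 0.27 passed narrowly (edgeR adjusted p = 0.0471). It missed the threshold without shATXN7L3 replicate 2 (adjusted p = 0.187) or 3 (0.141), without shcontrol replicate 1 (0.168) or 2 (0.0849), and with DESeq2 (0.183).

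GALNT6, a close relative of GALNT3, showed the lowest fold change of all the glycosyltransferases. It stood at 0.559, 0.332 and 0.711 CPM in shATXN7L3 and at 2.27, 2.07 and 2.20 CPM in shcontrol. Both groups were low, and they were clearly apart, with 24.7% of the control level left (log2 fold change -2.02 ± 0.24; edgeR adjusted p = 4.27e-06). Its position is chromosome 12, bases 51351247 to 51392867, minus strand, and 5.34% of its exonic bases overlap SLC4A8 on the opposite strand.

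GALNT1, the broadly expressed initiating enzyme and, per kilobase of exon, the most abundant glycosyltransferase gene here, had 209, 207 and 207 CPM in shATXN7L3 and 239, 232 and 226 CPM in shcontrol. The shATXN7L3 libraries were lower and closely alike. The change was small (log2 fold change -0.16 ± 0.042; edgeR adjusted p = 0.0083), and without shATXN7L3 replicate 3 it missed the threshold (adjusted p = 0.0526). GALNT2, the other widely used initiator, averaged 129 ± 4.28 CPM in shATXN7L3 and 133 ± 5.46 CPM in shcontrol (SD, n = 3 each), with overlapping groups. GALNT7 and GALNT10, which act on peptides that already carry a GalNAc, and GALNT11 had log2 fold changes between -0.04 and 0.04 and did not pass. GALNT4 shares 93.2% of its exonic bases with the readthrough gene POC1B-GALNT4, so its counts are uncertain. Its log2 fold change was -0.15 ± 0.057 (edgeR adjusted p = 0.0619).

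C1GALT1 makes core 1 by adding galactose to the first GalNAc. It stood at 20.5, 19.4 and 19.8 CPM in shATXN7L3 and at 14.8, 17.5 and 15.9 CPM in shcontrol. The shATXN7L3 libraries were all higher (log2 fold change 0.31 ± 0.071; edgeR adjusted p = 0.00294). Its dedicated chaperone C1GALT1C1, also called COSMC, was counted separately and went the other way. C1GALT1C1 had 42.6, 40.9 and 42.3 CPM in shATXN7L3 and 55.1, 51.4 and 44.1 CPM in shcontrol, without overlap (log2 fold change -0.26 ± 0.065; edgeR adjusted p = 0.00638).

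The GCNT enzymes add branches of N-acetylglucosamine, most of them the branch that turns core 1 into core 2. All 4 tested genes were called, with 1 higher and 3 lower, against 24.2% of all tested genes and 28.8% of tested protein-coding genes called. The summed GCNT level was 193 to 200.3 CPM in shATXN7L3 and 228 to 254 CPM in shcontrol. GCNT3, the mucin-type enzyme that makes core 2, core 4 and I branches, gave 89.3% of the family's level per exonic length in shATXN7L3 and 89.2% in shcontrol. It stood at 168, 174 and 167 CPM in shATXN7L3 and at 219, 195 and 202 CPM in shcontrol. All shATXN7L3 libraries were lower (log2 fold change -0.28 ± 0.048; edgeR adjusted p = 0.000226). GCNT2 branches poly-N-acetyllactosamine chains and makes the I blood group antigen. It had 24.1, 23.2 and 22.6 CPM in shATXN7L3 and 31.7, 30.6 and 30.1 CPM in shcontrol, again without overlap (log2 fold change -0.40 ± 0.057; edgeR adjusted p = 2.9e-05).

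The other two GCNT genes were low and went in opposite directions. GCNT4, a further core 2 enzyme, had 2.67, 2.61 and 2.05 CPM in shATXN7L3 and 0.978, 1.38 and 0.835 CPM in shcontrol. The lowest shATXN7L3 library was above the highest shcontrol library, and the log2 fold change was 1.20 ± 0.21 (edgeR adjusted p = 0.000291). GCNT1, the core 2 enzyme best known from leukocytes, had 0.817, 0.788 and 0.962 CPM in shATXN7L3 and 1.56, 1.20 and 1.71 CPM in shcontrol. It was lower in each shATXN7L3 library (log2 fold change -0.80 ± 0.23; edgeR adjusted p = 0.0159). That call was lost without shATXN7L3 replicate 1 (adjusted p = 0.0590) or 2 (0.0676), without shcontrol replicate 3 (0.0617), and with DESeq2 (0.0843).

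Chain extension by the B3GNT enzymes adds N-acetylglucosamine to galactose. Of 5 tested genes 1 was higher, 1 was lower and 3 did not pass. B3GNT3, which extends core 1 and helps make L-selectin ligands, stood at 15.7, 15.5 and 19.9 CPM in shATXN7L3 and at 11.1, 11.0 and 10.8 CPM in shcontrol. The third shATXN7L3 library was the highest of the 6, and the other two were also above shcontrol. The log2 fold change was 0.64 ± 0.091 (edgeR adjusted p = 2.87e-05). B3GNT5, which starts the lacto-series glycolipids, had 27.3, 26.6 and 24.9 CPM in shATXN7L3 and 30.7, 32.5 and 32.5 CPM in shcontrol. All shATXN7L3 libraries were lower (log2 fold change -0.28 ± 0.058; edgeR adjusted p = 0.0012). Exons of MCF2L2 on the opposite strand overlap 16.2% of the exonic bases of B3GNT5. B3GNT2, the main poly-N-acetyllactosamine enzyme and the most expressed of the family, averaged 50.8 ± 0.436 CPM in shATXN7L3 and 50.8 ± 3.09 CPM in shcontrol. B3GNT4, which can also extend lactosamine chains, and B3GNT9 did not pass either (log2 fold change -0.13 ± 0.066 and 0.04 ± 0.12).

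Of the genes for beta-1,3-galactosyltransferases other than C1GALT1, B3GALT5 rose. It makes type 1 chains, the backbone of the CA19-9 antigen. B3GALT5 stood at 65.7, 60.2 and 65.3 CPM in shATXN7L3 and at 46.4, 49.3 and 42.6 CPM in shcontrol. The groups were far apart (log2 fold change 0.47 ± 0.057; edgeR adjusted p = 4.88e-06). B3GALT6, which builds the linker of glycosaminoglycans, averaged 23.6 ± 1.53 CPM in shATXN7L3 and 23.9 ± 3.61 CPM in shcontrol. B3GALT4, a ganglioside enzyme, was at 0.688 CPM or less in every library. Neither passed.

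Among the 7 beta-1,4-galactosyltransferase genes 3 were higher, 2 were lower and 2 did not pass. B4GALT5 and B4GALT6 both encode lactosylceramide synthases, which make the precursor of most glycosphingolipids. B4GALT5 stood at 148, 147 and 149 CPM in shATXN7L3 and at 193, 185 and 193 CPM in shcontrol. It was lower in all shATXN7L3 libraries (log2 fold change -0.36 ± 0.042; edgeR adjusted p = 2.55e-06). B4GALT6 was higher instead, with 29.5, 28.1 and 31.4 CPM in shATXN7L3 and 23.7, 21.7 and 21.2 CPM in shcontrol (log2 fold change 0.42 ± 0.064; edgeR adjusted p = 6.44e-05). Neither gene's groups overlapped. Per kilobase of exon, B4GALT5 stayed above B4GALT6 in both groups, at 31.3 against 5.59 CPM per kilobase in shATXN7L3 and 40.3 against 4.18 CPM per kilobase in shcontrol. A4GALT, which turns lactosylceramide into the Gb3 glycolipid, had groups that did not overlap but did not pass (log2 fold change 0.21 ± 0.087; edgeR adjusted p = 0.0867).

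B4GALT4 stood at 81.3, 81.0 and 82.4 CPM in shATXN7L3 and at 73.1, 72.6 and 65.3 CPM in shcontrol. It adds galactose during keratan sulfate and other lactosamine synthesis, and was higher throughout (log2 fold change 0.21 ± 0.050 SE; edgeR adjusted p = 0.00363). B4GALT1, the main lactosamine enzyme of N-glycans and part of lactose synthase in milk glands, had 142, 143 and 146 CPM in shATXN7L3 and 169.9, 153 and 152 CPM in shcontrol. Its shcontrol replicate 1 stood well above the other two. The log2 fold change was -0.14 ± 0.048 (edgeR adjusted p = 0.0413). This call was lost without any 1 of the shATXN7L3 libraries (adjusted p = 0.0989 to 0.152), without shcontrol replicate 1 (0.163), with library size alone (0.149) and with DESeq2 (0.0552). B4GALT2, which also acts on N-glycans, averaged 10.1 ± 0.279 CPM in shATXN7L3 and 8.25 ± 0.515 CPM in shcontrol (log2 fold change 0.29 ± 0.087; edgeR adjusted p = 0.0209). Its call was lost without shATXN7L3 replicate 1 (0.0637) or 2 (0.0717), without shcontrol replicate 2 (0.0915) and with DESeq2 (0.108). B4GALT3 and B4GALT7 had log2 fold changes of 0.01 and -0.01 and did not pass.

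Sialic acid is the most common terminal sugar of these chains. The 2 sialyltransferase genes that fell the most were ST6GALNAC1 and ST8SIA4. ST6GALNAC1, the enzyme of the tumour-associated sialyl-Tn antigen, stood at 7.05, 8.17 and 7.32 CPM in shATXN7L3 and at 17.5, 14.8 and 17.1 CPM in shcontrol. The shATXN7L3 libraries kept 45.6% of the control level (log2 fold change -1.13 ± 0.089; edgeR adjusted p = 1.28e-08). ST8SIA4, 1 of the 2 enzymes that put polysialic acid on the adhesion molecule NCAM, had 17.4, 16.3 and 18.3 CPM in shATXN7L3 and 35.6, 30.3 and 39.1 CPM in shcontrol. Here 49.6% was left (log2 fold change -1.01 ± 0.079; edgeR adjusted p = 1.28e-08). The groups of both genes were far apart. The other polysialyltransferase gene, ST8SIA2, had 10 counts or fewer in every library and was not tested. ST6GALNAC1 spans bases 76624761 to 76643838 of chromosome 17, and ST8SIA4 spans bases 100806935 to 100903266 of chromosome 5, both on the minus strand.

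ST3GAL6 and ST6GAL1 went up. ST3GAL6, which sialylates lactosamine ends and contributes to sialyl Lewis x, had 22.5, 22.7 and 21.8 CPM in shATXN7L3 and 16.4, 14.7 and 16.8 CPM in shcontrol. The gap between the groups was wide compared with the spread inside them (log2 fold change 0.48 ± 0.067; edgeR adjusted p = 2.28e-05). Exons of PDLIM1P4 on the same strand overlap 5.63% of its exonic bases. ST6GAL1, the main sialyltransferase of N-glycans in liver, stood at 114, 108 and 112 CPM in shATXN7L3 and at 99.8, 92.5 and 103 CPM in shcontrol. The groups did not overlap, though the change was small (log2 fold change 0.18 ± 0.048; edgeR adjusted p = 0.0112). It missed the threshold without shATXN7L3 replicate 1 (adjusted p = 0.0663) or 3 (0.0535) and without shcontrol replicate 2 (0.0787).

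The other 5 tested ST3GAL genes did not pass, with log2 fold changes from -0.12 to 0.03. They include ST3GAL1, which caps core 1 and had the most CPM of all the glycosyltransferase genes, at 273 ± 4.15 CPM in shATXN7L3 and 278 ± 14.3 CPM in shcontrol. ST3GAL5, which makes the ganglioside GM3 from lactosylceramide, and ST3GAL4 had groups that did not overlap but did not pass (log2 fold change -0.10 ± 0.054 and -0.12 ± 0.060). ST6GALNAC6, a ganglioside and disialyl Lewis a enzyme, was lower at 11.7 ± 0.852 CPM in shATXN7L3 and 14.4 ± 1.27 CPM in shcontrol (log2 fold change -0.30 ± 0.083; edgeR adjusted p = 0.0124). That call was lost without shATXN7L3 replicate 1 (adjusted p = 0.0549) or 3 (0.0742). ST6GALNAC4, which adds sialic acid to sialylated core 1, and ST6GALNAC2 did not pass. Relative to the summed level per exonic length of all ST6GAL and ST6GALNAC genes, ST6GALNAC1 gave 10.1% ± 0.869 in shATXN7L3 and 19.99% ± 0.583 in shcontrol (SD, n = 3 each). ST6GAL1 gave 56.3% ± 1.16 in shATXN7L3 and 45.1% ± 1.38 in shcontrol.

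**Figure D2:**
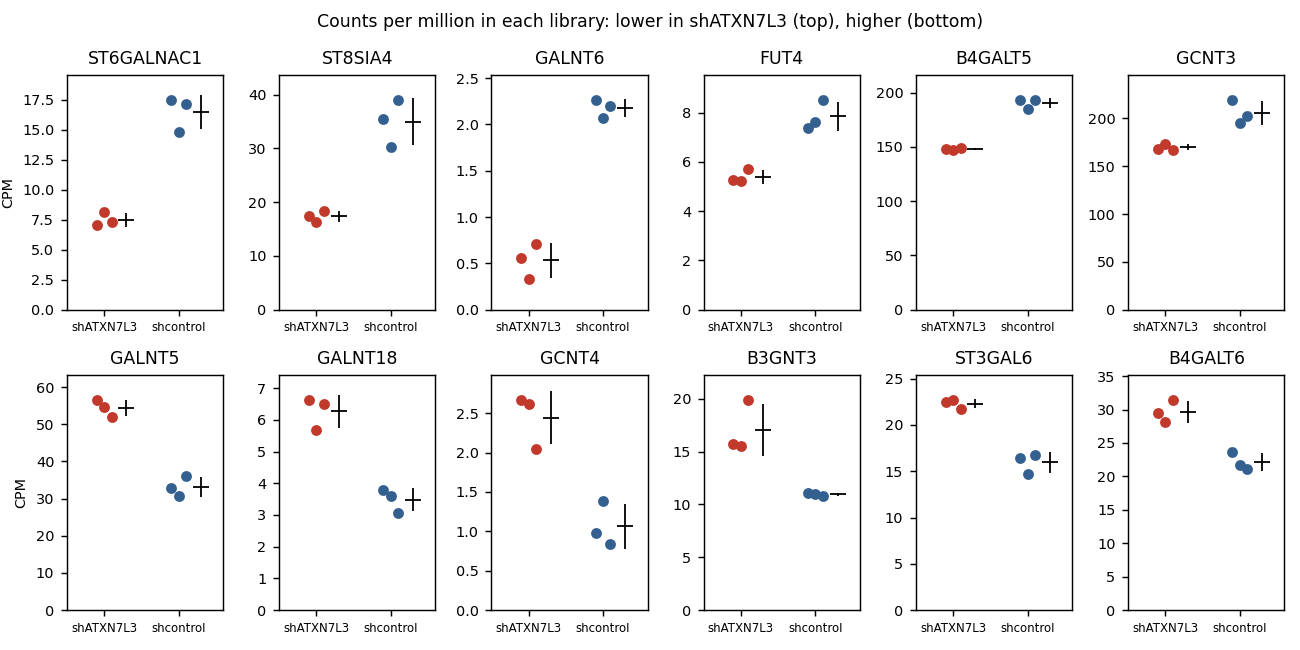
CPM (y axis, from 0) of 12 called glycosyltransferase genes in each of the 3 shATXN7L3 libraries (red) and 3 shcontrol libraries (blue), with the mean and SD in black. The upper row holds genes that were lower in shATXN7L3 and the lower row genes that were higher, and in none of the 12 panels do the 2 groups overlap.

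Promoter sequence is shown for 3 of the called genes just described. A single RefSeq promoter entry that ends within 100 bases of the start of the deposited gene model was found for 4 called genes with enough bases before that start. Of these the 2 lower genes with the smallest p, ST8SIA4 and B4GALT5, and the higher gene ST6GAL1 are printed. The letters are RefSeq's for GRCh38.p14, read 5′ to 3′ on the gene's own strand and ending at or near its start. Capitals mark matches to the GC box GGGCGG or the CCAAT box CCAAT on either strand. The windows are chr5:100903283-100903532 on the minus strand for ST8SIA4, chr20:49713879-49714128 on the minus strand for B4GALT5 and chr3:186930276-186930484 on the plus strand for ST6GAL1.
ST8SIA4: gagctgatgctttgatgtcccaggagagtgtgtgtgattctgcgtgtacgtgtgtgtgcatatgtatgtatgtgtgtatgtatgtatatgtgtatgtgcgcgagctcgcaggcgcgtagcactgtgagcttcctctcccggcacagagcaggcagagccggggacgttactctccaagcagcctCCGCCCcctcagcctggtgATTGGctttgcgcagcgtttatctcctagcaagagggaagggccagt
B4GALT5: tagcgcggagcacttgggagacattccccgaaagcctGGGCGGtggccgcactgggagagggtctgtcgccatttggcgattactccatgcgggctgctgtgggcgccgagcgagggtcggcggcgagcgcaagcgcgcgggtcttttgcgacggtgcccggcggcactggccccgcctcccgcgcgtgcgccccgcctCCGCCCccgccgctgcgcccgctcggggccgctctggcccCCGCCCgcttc
ST6GAL1: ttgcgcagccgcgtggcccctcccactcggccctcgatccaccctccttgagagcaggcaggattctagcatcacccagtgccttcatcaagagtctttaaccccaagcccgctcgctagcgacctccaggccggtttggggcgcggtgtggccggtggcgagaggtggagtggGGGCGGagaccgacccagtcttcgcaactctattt
The B4GALT5 window is 75.6% G and C, with 37 CpG dinucleotides and 3 GC boxes. The ST8SIA4 window is 55.6% G and C, with 13 CpG dinucleotides, 1 GC box and 1 CCAAT box. That of ST6GAL1 is 64.1% G and C, with 16 CpG dinucleotides and 1 GC box. The ST6GAL1 window holds 209 bases, so its counts come from a shorter stretch than the windows of 250 bases below. Over all 35116 windows of 250 bases in the RefSeq table the median was 58.0% G and C with 11 CpG dinucleotides. A GC box was present in 42.6% of them, a CCAAT box in 32.0%, the TATA box TATAAA in 10.7% and the E-box CACGTG in 6.34%. RefSeq entries matched 54 of the 78 genes. A GC box was in 10 of 14 windows of higher genes, 15 of 29 windows of lower genes and 20 of 30 windows of genes that did not pass. Several windows can belong to 1 gene, so these shares are descriptions only.

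Fucosyltransferases add the fucose of core-fucosylated N-glycans, of the H antigens and of Lewis antigens. Of 5 tested genes 1 fell and 4 did not pass. FUT4, which makes Lewis x, stood at 5.25, 5.23 and 5.73 CPM in shATXN7L3 and at 7.38, 7.64 and 8.52 CPM in shcontrol. It was lower in each shATXN7L3 library (log2 fold change -0.54 ± 0.10; edgeR adjusted p = 0.000633). FUT4 shares 11.3% of its exonic bases with PIWIL4 on the same strand and 10.8% with a gene on the opposite strand, so some of its reads cannot be assigned. FUT8, the core fucosyltransferase and the most expressed of the family, averaged 30.1 ± 0.562 CPM in shATXN7L3 and 32.1 ± 2.06 CPM in shcontrol (log2 fold change -0.09 ± 0.058). FUT10 and FUT11, remote relatives of the Lewis enzymes, had log2 fold changes of 0.20 and 0.14. FUT2, an H antigen enzyme, was near 1 CPM in every library.

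The MGAT genes encode the enzymes that start each antenna of complex N-glycans. Of the 6 tested, 3 were lower (50%), against 12.0% of all tested genes, and 3 did not pass. All 6 log2 fold changes were below 0, between -0.53 and -0.06. The median over all tested genes was 0.01. With library size alone as the scaling all 6 were again below 0, with MGAT5 the closest to it at -0.01. The summed MGAT level was 279.1 to 279.4 CPM in shATXN7L3 and 309 to 325 CPM in shcontrol. MGAT1 opens the pathway to hybrid and complex N-glycans. It had 43.8, 46.7 and 45.6 CPM in shATXN7L3 and 58.6, 53.6 and 56.3 CPM in shcontrol, without overlap (log2 fold change -0.31 ± 0.052; edgeR adjusted p = 0.000167). MGAT4B and MGAT4A both start the same further antenna. MGAT4B stood at 75.8, 78.7 and 74.4 CPM in shATXN7L3 and at 91.2, 88.0 and 97.6 CPM in shcontrol (log2 fold change -0.27 ± 0.049; edgeR adjusted p = 0.00033). MGAT4A had 2.75, 2.82 and 2.39 CPM in shATXN7L3 and 3.38, 3.82 and 4.26 CPM in shcontrol. All shATXN7L3 libraries of both genes were lower than all shcontrol libraries. The log2 fold change of MGAT4A was -0.53 ± 0.15 (edgeR adjusted p = 0.0123), and it missed the threshold without shATXN7L3 replicate 3 (0.0657) and with DESeq2 (0.0534).

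MGAT5, whose branch is the one most often tied to metastasis, averaged 128 ± 4.34 CPM in shATXN7L3 and 133 ± 4.55 CPM in shcontrol, with overlapping groups. Its log2 fold change was -0.06 ± 0.046 (edgeR adjusted p = 0.415). MGAT2, which starts the second antenna, had groups that did not overlap but did not pass (log2 fold change -0.16 ± 0.063; edgeR adjusted p = 0.0711). A gene on the opposite strand covers 91.9% of its exonic bases, and the strand setting of the counting is not given in the sources used here. MGAT5B, which branches O-mannose glycans of brain, was under 2 CPM in every library (log2 fold change -0.45 ± 0.23; edgeR adjusted p = 0.174).

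Levels between genes were compared as CPM per kilobase of the deposited exonic length. In shcontrol GALNT1 came first at 45.3 ± 1.23 CPM per kilobase, followed by B4GALT5 at 40.3 ± 1.02 CPM per kilobase. The ranges of these libraries did not overlap. B4GALT1 at 32.3, ST3GAL1 at 31.9 and GCNT3 at 31.7 CPM per kilobase came next and overlapped each other. After them came B3GNT2, GALNT2 and MGAT4B, from 17.7 down to 16.8 CPM per kilobase and also overlapping, and then MGAT5 at 15.5 CPM per kilobase. In shATXN7L3 GALNT1 was again first at 40.5 CPM per kilobase, and B4GALT5 at 31.3 CPM per kilobase was level with ST3GAL1 at 31.3 CPM per kilobase. The share of B4GALT5 in its family per exonic length was 36.1% ± 0.146 in shATXN7L3 and 42.4% ± 1.23 in shcontrol, while that of B4GALT1 was 33.9% in both. GALNT1 made up 42.6% of the GALNT level in shATXN7L3 and 46.6% in shcontrol, and GALNT5 8.39% in shATXN7L3 and 5.01% in shcontrol. B3GNT3 made up 20.5% ± 2.41 of the B3GNT level in shATXN7L3 and 13.8% ± 0.341 in shcontrol.

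**Figure D3:**
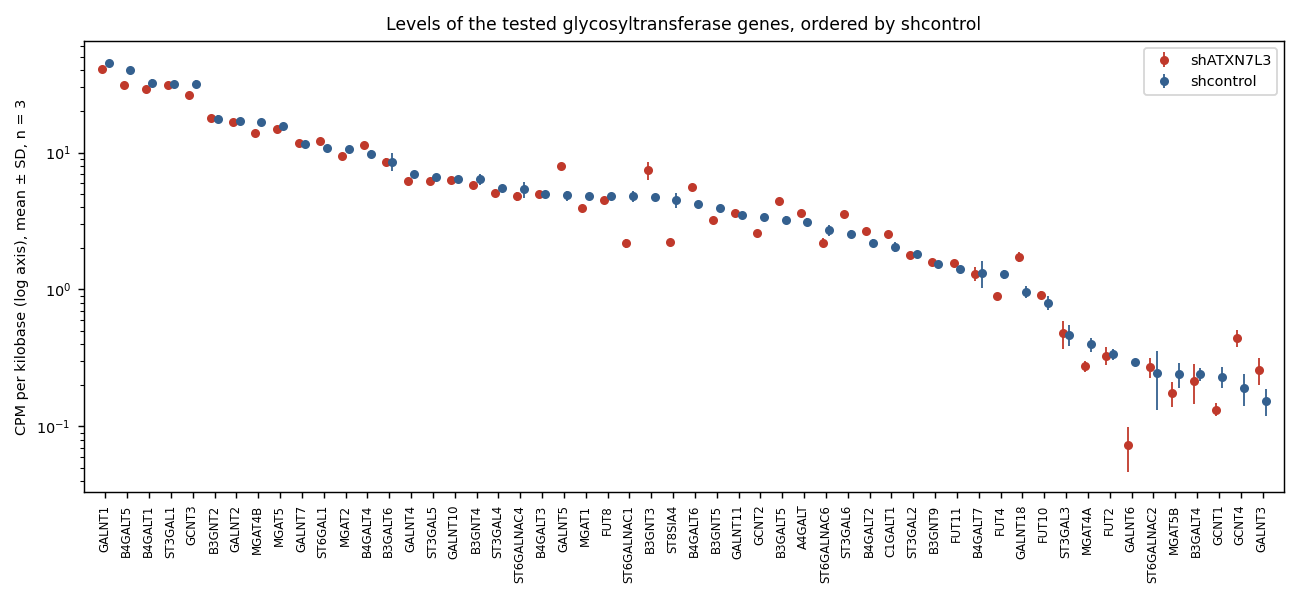
CPM per kilobase of exon (y axis, logarithmic) for the 54 tested glycosyltransferase genes, ordered by their shcontrol level, as mean ± SD of 3 shATXN7L3 libraries (red) and 3 shcontrol libraries (blue). GALNT1 leads in both groups, and the red points lie clearly below the blue ones at ST6GALNAC1, ST8SIA4 and GALNT6 and above them at GALNT5 and GCNT4.

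Some genes of the set are neighbours, within 1000 kilobases of each other. ST6GALNAC1 lies 37.8 kilobases from ST6GALNAC2 on chromosome 17, and the first was lower while the second did not pass (log2 fold change 0.15 ± 0.31). ST6GALNAC6 and ST6GALNAC4 are 2.48 kilobases apart on chromosome 9, with the first lower and the second not past the threshold (log2 fold change -0.17 ± 0.092). B4GALT2 was higher, and ST3GAL3, 47.8 kilobases away on chromosome 1, did not pass. MGAT4B and MGAT1, 978 kilobases apart on chromosome 5, were both lower. Of the 10 such pairs only these 4 are described. Both genes were called in 1 of the 4, MGAT4B and MGAT1, which lie the farthest apart. No share for neighbouring genes at large was computed.

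The 24 genes left out by the filter had 0 to 11 counts per library and at most 43 counts over all 6. They include B3GNT6, which makes core 3, MGAT3, which adds the bisecting N-acetylglucosamine, ST6GAL2, the Lewis enzymes FUT3, FUT5, FUT6 and FUT7, and the H enzyme FUT1. Of the 24, 5 were at 0 in all shATXN7L3 libraries and 4 were at 0 in all shcontrol libraries. A count of 0 allows up to 3 counts, or 0.125 to 0.134 CPM depending on the library, for counting error only. Without the filter all 78 genes were fitted, again with 12 higher and 15 lower, so none of the 24 was called. A small or moderate difference in them was not detectable at this depth.

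The steps before and after these enzymes were read from gene lists in the same way. Each count stands beside the same background of all tested genes, 24.2% called, with 12.2% higher and 12.0% lower, and 28.8% called among protein-coding genes. The oligosaccharyltransferase moves the preassembled N-glycan block onto the protein. Of its 12 tested genes 1 was higher and 6 were lower, or 58.3% called, with a median log2 fold change of -0.12. STT3B, a catalytic subunit, stood at 248, 234 and 245 CPM in shATXN7L3 and at 350.2, 335 and 331 CPM in shcontrol (log2 fold change -0.48 ± 0.043; edgeR adjusted p = 9.01e-08). RPN2, a further subunit, averaged 210.1 ± 1.47 CPM in shATXN7L3 and 274 ± 8.96 CPM in shcontrol (log2 fold change -0.38 ± 0.043; edgeR adjusted p = 1.64e-06). Neither overlapped between groups. MAGT1 and DDOST were also lower, with log2 fold changes of -0.26 and -0.27, and TMEM258 was the higher one.

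Of the 20 genes that assemble the block on dolichol, 1 was higher and 6 were lower, or 35% called, with a median of -0.05. The lower ones include the mannosyltransferase ALG12 (log2 fold change -0.33) and the dolichol-phosphate-mannose synthase genes DPM1 (-0.21) and DPM2 (-0.29), and ALG5, a glucosyltransferase, was higher (0.36). Of 14 trimming genes 2 were higher and 7 were lower, or 64.3% called, with a median of -0.13, but 4 were lower without shATXN7L3 replicate 1. The Golgi mannosidase gene MAN1A1 averaged 81.0 ± 4.65 CPM in shATXN7L3 and 98.5 ± 7.45 CPM in shcontrol (log2 fold change -0.28; edgeR adjusted p = 0.000899). MAN2A1, which acts just after MGAT1, had a log2 fold change of -0.21, and EDEM2, which trims misfolded glycoproteins, one of 0.25.

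Nucleotide sugars are the donors of every step. Of 26 nucleotide sugar synthesis genes 9 were higher (34.6%) and 1 was lower, with a median of 0.13. CMAS, which activates sialic acid, had 141, 144 and 139 CPM in shATXN7L3 and 113, 119 and 112 CPM in shcontrol. It was higher in all shATXN7L3 libraries (log2 fold change 0.30 ± 0.044; edgeR adjusted p = 4.1e-05). GNE, which begins sialic acid synthesis, had a log2 fold change of 0.23 ± 0.045. GALK2 rose by 0.36, and GMDS, the first enzyme of GDP-fucose synthesis, was the lower one (-0.36). Among 10 Golgi transporter genes 1 was higher and 2 were lower, or 30% called, which is near the background. SLC35A5 fell to 13.0 ± 0.699 CPM in shATXN7L3, against 23.2 ± 0.435 CPM in shcontrol (log2 fold change -0.84 ± 0.067; edgeR adjusted p = 1.73e-08). The UDP-N-acetylglucosamine transporter gene SLC35A3 had a log2 fold change of -0.36, and the GDP-fucose transporter gene SLC35C1 one of 0.25.

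Of 12 genes for glycan removal 5 were lower (41.7%) and 7 did not pass. They include the sialidase genes NEU1 (log2 fold change -0.31) and NEU4 (-1.37, at 0.90 ± 0.241 CPM in shATXN7L3 and 2.33 ± 0.232 CPM in shcontrol), and the lysosomal HEXA (-0.25) and MANBA (-0.32). Among 10 other Golgi glycosyltransferase genes 1 was higher and 2 were lower, again 30% called and near the background. Besides C1GALT1C1, the globoside enzyme gene B3GALNT1 was lower (-0.31), and B3GAT3, of the glycosaminoglycan linker, was higher (0.25; edgeR adjusted p = 0.0135). The call of B3GAT3 was lost without shATXN7L3 replicate 1 (0.0668), without shcontrol replicate 2 (0.0697) and with DESeq2 (0.0682). Of 12 genes of Golgi organisation only COG4 was called, or 8.33%, which is below the background (log2 fold change -0.28; edgeR adjusted p = 0.0093). It was not called without shATXN7L3 replicate 1 (0.0593). Taking these 8 lists as 1, 15 of 116 genes were higher and 30 were lower. Against 12.2% higher and 12.0% lower over all tested genes, the higher count is near the background and the lower count is above it. With library size alone as the scaling the split was 26 higher and 26 lower.

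**Figure D4:**
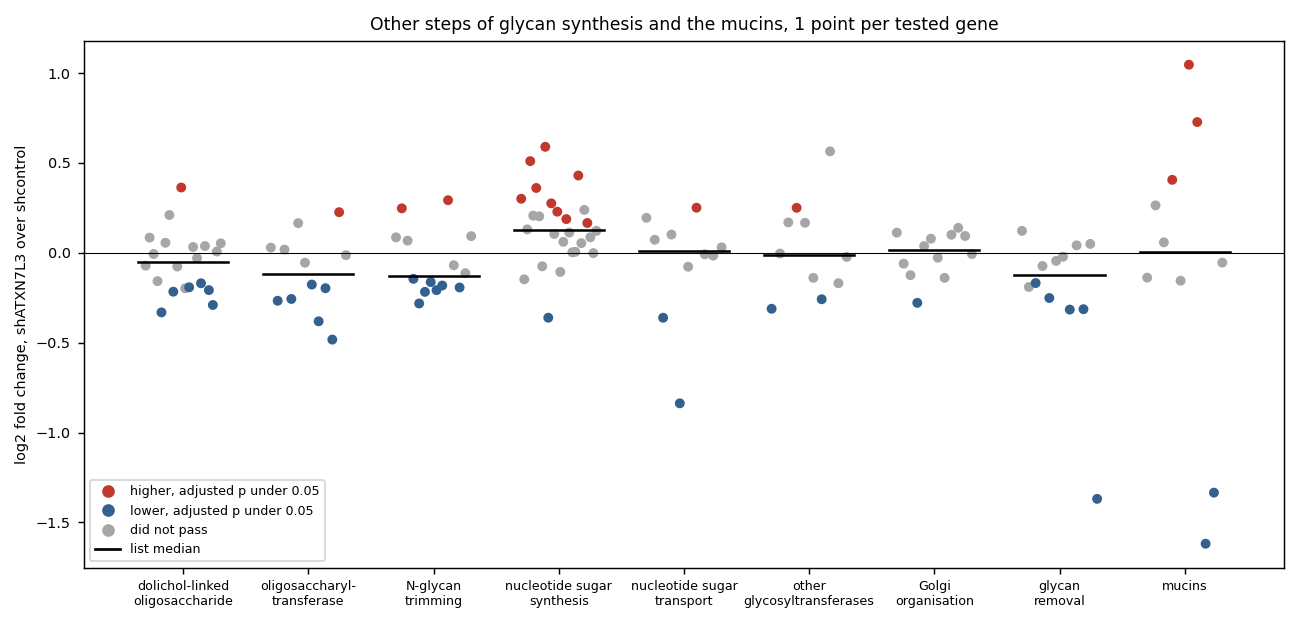
Log2 fold change of shATXN7L3 over shcontrol (y axis) for each tested gene of 8 lists of glycan synthesis and removal and of the mucins, with the list median as a black bar. Red points are higher, blue points lower and grey points did not pass. Nucleotide sugar synthesis, at 0.13, has the highest median, and the mucins range from -1.62 to 1.05.

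The mucins are the main carriers of O-glycans. Of 10 tested mucin genes 3 were higher and 2 were lower, or 50% called against 24.2% of all tested genes. The lower ones were the secreted MUC5AC and MUC5B, with log2 fold changes of -1.62 ± 0.062 and -1.33 ± 0.062. The higher ones were the membrane mucins MUC3A (1.05 ± 0.074), MUC4 (0.73 ± 0.093) and MUC15 (0.41 ± 0.073). The other tested mucin genes, MUC6 (-0.05), MUC1 (-0.14), MUC20 (-0.16), MUC13 (0.06) and MUC12 (0.26), did not pass. The summed mucin level was 367 to 401 CPM in shATXN7L3 and 576 to 682 CPM in shcontrol.

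Markers of other cell types were read beside these values. For each marker count here and in the next paragraph, the background is all tested genes. Of those, 24.2% were called, with 12.2% higher and 12.0% lower. Of 5 goblet and intestinal genes 3 were lower, and the summed level was 89.6 to 92.2 CPM in shATXN7L3 and 106 to 129 CPM in shcontrol. FCGBP, a protein of mucus, was at 25.7 ± 0.515 CPM in shATXN7L3 and 52.1 ± 5.39 CPM in shcontrol (log2 fold change -1.02 ± 0.066; edgeR adjusted p = 7.08e-10). SPDEF, a goblet cell transcription factor (-0.71, adjusted p = 0.0123), and TFF3, a trefoil peptide (-0.83, adjusted p = 0.0181), were lower by edgeR. They were not called by DESeq2 (adjusted p = 0.0562 and 0.0845). By edgeR the call of SPDEF was also lost without shATXN7L3 replicate 3 (0.0674) or shcontrol replicate 1 (0.0663). That of TFF3 was lost without shATXN7L3 replicate 1 (0.0887) or 2 (0.0885) or shcontrol replicate 3 (0.0583). VIL1 and CDX2 did not pass. FCGBP, SPDEF and TFF3 were lower beside GALNT6, ST6GALNAC1, MUC5AC and MUC5B. In the same families GALNT3, GALNT5, GALNT18, ST6GAL1 and the membrane mucins MUC3A, MUC4 and MUC15 were higher. The part of the goblet genes in those results was not tested.

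For leukocytes, PTPRC, CD3E and CD14 were under 0.5 CPM in every library, 1 of 2 tested genes (ITGAM) was higher and 1 (LYZ) was lower, and the sum was 5.33 to 5.61 CPM in shATXN7L3 and 3.31 to 5.01 CPM in shcontrol. For endothelium, CDH5, TEK and VWF were under 0.5 CPM. Of 2 tested genes PECAM1 was lower (log2 fold change -0.64) and KDR did not pass (-0.02). KDR averaged 15.3 ± 0.259 CPM in shATXN7L3 and 15.5 ± 2.63 CPM in shcontrol. The endothelial sum was 42.5 to 44.4 CPM in shATXN7L3 and 57.3 to 62.3 CPM in shcontrol. For stellate cells and fibroblasts, COL1A1, COL3A1, DCN and PDGFRB were under 0.5 CPM, 1 of 2 tested genes (LUM, -2.29) was lower, and the sum was 8.26 to 9.25 CPM in shATXN7L3 and 27.2 to 31.5 CPM in shcontrol.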

How the data were processed

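The deposited values are whole read counts per gene in 1 table for 6 libraries. Per the submitters' processing notes, the authors used Trimmomatic 0.36, STAR 2.5.3a, featureCounts, Subread 1.5.1, edgeR 3.12.1 and GRCh38. Which annotation release was used, whether counting used strand, and how reads with more than 1 match were handled is not given in the sources used here. Positions and exonic lengths came with the counts, and 74 of 78 genes have the same ends in GENCODE 29. Exons of another gene overlap 11 of them on the same strand and 28 on the opposite strand, and such reads cannot be told apart.

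Groups came from the treatment label. Genes passing filterByExpr (minimum count 10, minimum total 15) were fitted with the quasi-likelihood test of edgeR 4.0.16 in R 4.3.3, with group as the only term and Benjamini-Hochberg adjustment over all 17935. The SE is the log2 fold change divided by the square root of F, an approximation. Sampling noise gives a chi-square of 1 per gene between 2 libraries. Pairs within shATXN7L3 gave 1.59 to 2.18 and within shcontrol 3.60 to 6.52, and each library was counted. This spread above sampling noise cannot tell separate cultures from separate preparations of 1 culture. The procedure was tested on simulated counts. The genes and gene lists were chosen with earlier results of these data known, and lists were counted without a set test. Every called glycosyltransferase gene is named. Values per library are given for called glycosyltransferase genes with a log2 change of at least 0.5 or a mean of at least 20 CPM, and for a few other genes. From each list come up to 4 called genes with the smallest p. Some genes that these rules cover are not reported here. Genes named beyond that rule were chosen after their values were seen. No sample was left out.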

Additional observations from a re-analysis of the deposited data

How the results depend on the processing

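Of the 27 called glycosyltransferase genes, 19 kept the call in every alternative run (at most 13 per gene) and 8 lost it in at least 1, with the values given in the report, and none reversed. Without 1 library the counts were 9 to 12 higher and 11 to 17 lower, and DESeq2 1.42.0 gave 10 higher and 12 lower. The cause of these shifts was not tested. With library size alone as the scaling, 13 were higher and 14 lower, and the split over all genes was 2955 higher and 1604 lower, against 2182 and 2150 with TMM. The median of all genes was then 0.05 instead of 0.01 on the log2 scale. The other glycan lists had 26 higher genes with library size alone and 9 with DESeq2, against 15, and DESeq2 called 1405 of all genes higher and 1603 lower, or 16.8%. Calls were gained by A4GALT with library size alone (adjusted p = 0.0404), B3GNT4 without shcontrol replicate 3 (0.0141), GALNT4 without shcontrol replicate 1 (0.0115), and MGAT2 (0.0430) and ST6GALNAC4 (0.0324) without shcontrol replicate 2, by edgeR.

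The genes that changed sign were all ones that did not pass. B3GNT2 was at -0.00365 with the size factors of DESeq2 and -0.00361 with its test. With library size alone the log2 fold changes were 0.0283 for B3GALT6, 0.0293 for B4GALT7, 0.0102 for FUT2, 0.00439 for GALNT10, 0.00193 for GALNT2, 0.0168 for ST3GAL1 and 0.0182 for ST3GAL2. With 1 library left out the range was -0.44 to 0.00917 for B3GALT4, -0.0994 to 0.12 for B3GALT6, -0.0372 to 0.0496 for B3GNT2, -0.0368 to 0.0508 for B4GALT3, -0.16 to 0.18 for B4GALT7, -0.15 to 0.0610 for FUT2, -0.0167 to 0.0354 for GALNT7, -0.0664 to 0.00483 for ST3GAL1, -0.0509 to 0.0158 for ST3GAL2, -0.17 to 0.16 for ST3GAL3 and -0.10 to 0.57 for ST6GALNAC2.

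Deviations of same-numbered libraries were nearly unrelated (r = -0.016, 0.005 and 0.044), and differently numbered ones gave -0.072 to 0.067. With 3 libraries a group and much counting noise, this cannot decide whether the numbers mark shared cultures. With the replicate block 12 glycosyltransferase genes were higher and 15 lower. An alternative chosen after seeing the data left out genes that overlap another gene's exons on the same strand, and gave 11 higher and 13 lower. With 3 libraries a group, genes at a few counts could show only large differences. LYZ, at 2 to 6 counts in shATXN7L3 and 14 to 26 in shcontrol, was called.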
